A study of Mus musculus with 4 samples.

Results

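The 10 genes described here set whether a cell dies by apoptosis. Of these, 5 are pro-survival members of the Bcl2 family (Bcl2, Bcl2l1, Mcl1, Bcl2a1b and Bcl2a1d), 3 are BH3-only members that start the death signal (Bcl2l11, Bbc3 and Pmaip1), and Bax is an effector. Fas, a death receptor of the TNF receptor family, is listed with them but is no member of the Bcl2 family. They were chosen by name, each symbol was found once in all 4 count tables, and the tables hold 31053 genes in all.

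The cells were CD45+ cells sorted from Peyer's patches, organised lymphoid tissue in the wall of the small bowel, of wild-type female Taconic mice. The SFB-positive group came from mice carrying segmented filamentous bacteria (SFB), commensals of the gut that anchor in its lining, and the SFB-negative group from mice without them. Each group pooled 5 mice and has 2 libraries, numbered 1 and 2, for which 6000 cells were loaded to recover about 4000. Age is not given, nor whether the libraries of a group come from separate pools. The p-values of the main test therefore measure variation left after library number is taken into account, which may be technical. Its estimate is largely shared across genes. The comparison asks how colonisation with these bacteria goes with the state of the cells.

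The authors' table places 22569 cells in 7 clusters, and levels are given here as CPM, the UMIs of a gene summed over the cells of a library and cluster, per 1000000 UMIs of those cells. A UMI marks a single captured RNA molecule. Table cells numbered 3408 and 7380 in SFB-positive libraries, against 4050 and 7731 in SFB-negative libraries, with median depths of 1280 and 5863.5 UMIs per cell, against 1267 and 3252. The number 1 libraries differ from the number 2 libraries in depth, in Cell Ranger version in the file headers (6.0.0 against 7.0.0) and in 15 antibody tags that only the number 1 files list. Libraries of the same number shared 30 and 40 cell barcodes, 13 of them table cells in each pair, and libraries of different numbers shared at most 1. Ptprc, which encodes CD45, had 2103 and 51933 UMIs in SFB-positive libraries, against 1961 and 14265 UMIs in SFB-negative libraries. These are counts not scaled for depth. The table cells held 5959717 and 59627373 UMIs in SFB-positive libraries, against 6337385 and 32250501 UMIs in SFB-negative libraries. The table cells carried B cell markers more than T cell markers: 5 B cell genes summed to 3233 to 6479 CPM over all table cells, and 7 T cell genes to 9.07 to 19.3 CPM. Marker lists, chosen with earlier results known, summed highest for germinal-centre B cells (7 genes, Fas left out) in cluster 3, at 1551 to 2265 CPM, and in cluster 5, at 2163 CPM in SFB-positive library 2 and 1856 CPM in SFB-negative library 2. Naive B cell markers were highest in cluster 1, memory markers in cluster 4 and plasma cell markers in cluster 6. Cluster 5 has 209 and 258 cells in the number 2 libraries, SFB-positive and SFB-negative, and 0 and 1 in the number 1 libraries, so its levels rest on number 2 alone. Cluster 6 has between 6 and 68 cells per library. The most genes in any table cell were 2991 and 5990 in SFB-positive libraries, against 2980 and 3998 in SFB-negative libraries. Within number 2 the table thus reaches to cells of more genes in the SFB-positive library.

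In the mitochondrial pathway, pro-survival members bind and hold both the effectors Bax and Bak1 and the BH3-only members. BH3-only members, raised or released by stress, lost survival signals or DNA damage, free or activate the effectors, which then open the outer mitochondrial membrane. Fas instead signals from the cell surface through caspases. In germinal centres, B cells that do not bind antigen well enough die by apoptosis in large numbers, and germinal-centre B cells are known for low Bcl2 and high Fas.

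Bcl2a1b and Bcl2a1d, which encode A1, belong to a set of near-identical copies on mouse chromosome 9 with Bcl2a1a and Bcl2a1c. Their promoters are shown because the genes had a like order of levels across clusters and because reads from such copies are hard to tell apart. Both are from RefSeq, build GRCm38.p6, 5′ to 3′ on the gene's own strand, chr9:89199023-89199322 on the + strand for Bcl2a1b and chr9:88731801-88732100 on the - strand for Bcl2a1d. Capitals mark bases that differ in, or lie outside, the alignment with the other copy.
Bcl2a1b: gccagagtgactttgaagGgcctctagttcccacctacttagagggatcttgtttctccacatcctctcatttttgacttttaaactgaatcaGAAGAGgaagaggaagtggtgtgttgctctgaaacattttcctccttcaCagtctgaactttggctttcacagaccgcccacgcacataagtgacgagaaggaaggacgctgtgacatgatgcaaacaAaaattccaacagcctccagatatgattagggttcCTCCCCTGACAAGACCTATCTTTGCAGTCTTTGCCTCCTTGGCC
Bcl2a1d: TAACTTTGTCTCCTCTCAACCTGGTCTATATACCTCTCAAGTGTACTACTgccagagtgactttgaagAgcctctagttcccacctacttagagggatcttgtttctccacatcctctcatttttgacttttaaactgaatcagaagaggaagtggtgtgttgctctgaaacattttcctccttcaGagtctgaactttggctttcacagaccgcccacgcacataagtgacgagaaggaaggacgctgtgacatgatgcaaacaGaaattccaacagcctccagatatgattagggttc
Over the 250 aligned bases, 247 (98.8%) were identical. The longest annotated transcripts of Bcl2a1b and Bcl2a1d were identical at 810 of 817 aligned bases (99.1%), with a longest shared run of 217 bases. Over all table cells the files assign 14531 UMIs to Bcl2a1b, 4605 to Bcl2a1d, 166 to Bcl2a1a and 23 to Bcl2a1c. How reads that fit several copies were counted is not given in the sources used here, so the split between these genes is uncertain. Neither A1 promoter holds the NF-kB consensus on either strand, which 8.46% of the 32851 RefSeq promoters of 300 bases hold.

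Of the BH3-only members with a promoter in the same table, Bcl2l11 has 2 windows and Bbc3 has 3. In each gene 1 window holds TGTTTAC, a motif of FOXO factors, on either strand. Of all single promoter windows of 300 bases 3.65% hold it, a share that is per window and not per gene. The Bbc3 window, chr7:16310011-16310310 on the + strand, is shown with the motif in capitals, since Bbc3 had its highest level in cluster 3.
Bbc3: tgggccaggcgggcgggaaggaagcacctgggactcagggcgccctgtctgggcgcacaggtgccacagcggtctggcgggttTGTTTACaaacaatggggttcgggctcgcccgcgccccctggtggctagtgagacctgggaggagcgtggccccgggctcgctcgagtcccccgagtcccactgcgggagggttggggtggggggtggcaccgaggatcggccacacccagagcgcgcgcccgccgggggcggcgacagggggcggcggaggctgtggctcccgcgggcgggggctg
A match is a run of letters and not a site at which a factor was measured.

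The levels by cluster are a description without a test, because the authors made the clusters from the expression of these same cells. Fas was at its highest and Bcl2 at its lowest in cluster 3, which like cluster 5 had a high germinal-centre marker sum. Bcl2 was not as low in cluster 5, at 33.8 CPM in SFB-positive library 2 and 65.1 CPM in SFB-negative library 2. Bbc3 was also highest in cluster 3, and Bcl2l1 and Bax had their highest means in cluster 2. So did both A1 genes, but for each of them cluster 2 lay above cluster 4 in only 2 of 4 libraries. Clusters 0 to 4 had at least 20 cells in every library. Among them Mcl1 and Pmaip1 were highest in cluster 1 and Bcl2l11 in cluster 4. The Bcl2l11 means of clusters 5 and 6 lay higher than that of cluster 4. Gene positions below are those of the GENCODE vM21 annotation on GRCm38.

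**Figure D1:**
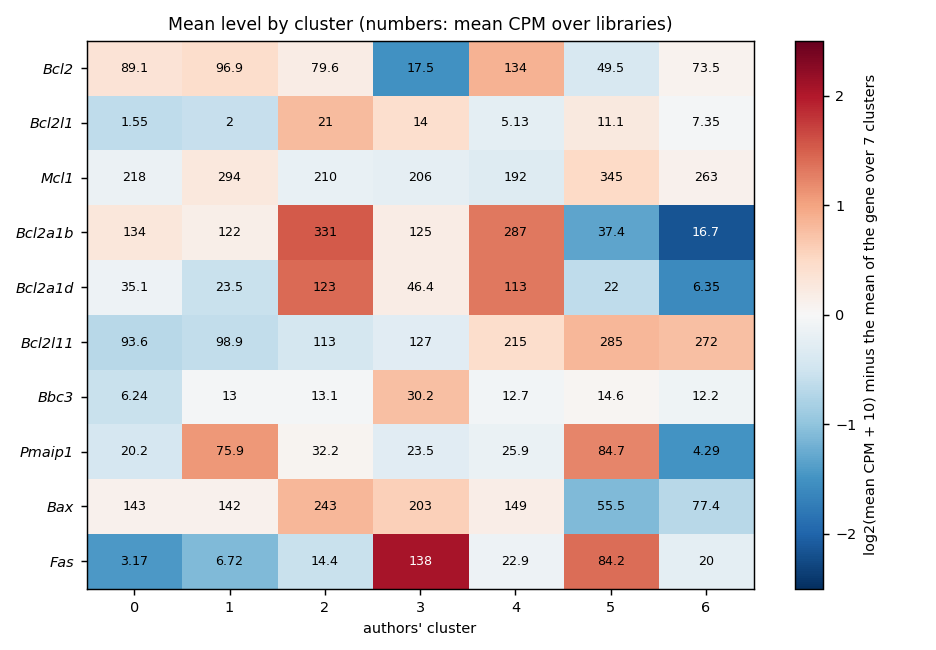
Mean level of each gene (rows) in each of the authors' 7 clusters (columns). The printed number is the mean CPM over 4 libraries (2 in cluster 5) and the colour is log2(mean CPM + 10) minus that gene's mean over the clusters; Fas peaks in cluster 3 and Bcl2 is lowest there. The cluster 5 means are of number 2 libraries alone and are not on the same libraries as the others.

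Bcl2 (ENSMUSG00000057329, chr1:106538178-106714274, - strand), which holds BH3-only members and is needed for the survival of mature lymphocytes, was lowest in cluster 3. There it had 13.7 and 24.4 CPM in SFB-positive libraries, against 19.1 and 12.6 CPM in SFB-negative libraries. In cluster 0 it had 86.0 and 98.0 CPM in SFB-positive libraries, against 111 and 61.7 CPM in SFB-negative libraries, so every library was lower in cluster 3 than any was in cluster 0. The log2(CPM + 10) difference of cluster 3 minus cluster 0 was -1.85 ± 0.22 (SD, n = 4 libraries). Bcl2 was highest in cluster 4, at 103 and 168 CPM in SFB-positive libraries, against 145 and 119 CPM in SFB-negative libraries, where all 4 libraries exceeded their own value in cluster 1, the next cluster. Clusters 1, 0, 2 and 6 overlapped in their library ranges. In cluster 5 the number 2 libraries had 33.8 CPM (SFB-positive) and 65.1 CPM (SFB-negative), above every library of cluster 3. The SFB-negative value also lay above the 61.7 CPM of that library in cluster 0. These values rest on 13 and 32 UMIs, and 12 of the 32 came from 1 cell.

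Fas (ENSMUSG00000024778, chr19:34290666-34327772, + strand), whose ligation recruits caspase 8, ran the other way. It had 158 and 136 CPM in SFB-positive libraries, against 136 and 122 CPM in SFB-negative libraries in cluster 3, and 2.92 and 3.92 CPM in SFB-positive libraries, against 1.75 and 4.09 CPM in SFB-negative libraries in cluster 0. The difference of cluster 3 minus cluster 0 was 3.49 ± 0.22 on the log2(CPM + 10) scale (SD, n = 4 libraries). In cluster 5 the number 2 libraries had 109 CPM (SFB-positive) and 59.0 CPM (SFB-negative), below every library of cluster 3. No library of clusters 0, 1, 2, 4 or 6 exceeded 35.9 CPM.

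Bcl2l1 (ENSMUSG00000007659, chr2:152780668-152831728, - strand), which encodes Bcl-xL, was highest in cluster 2 and had at most 3.15 CPM in any library of clusters 0 and 1. Cluster 2 had 19.6 and 34.6 CPM in SFB-positive libraries, against 9.93 and 20.01 CPM in SFB-negative libraries. These rest on 16 and 235 UMIs in SFB-positive libraries, against 9 and 68 UMIs in SFB-negative libraries. In SFB-positive library 2 those UMIs came from 95 of 800 cells, with up to 10 in 1 cell. The library ranges of clusters 2 and 3 overlapped, cluster 3 having 11.6 and 20.7 CPM in SFB-positive libraries, against 14.7 and 9.00 CPM in SFB-negative libraries. In cluster 1, SFB-positive library 1 had 0 UMIs, which allows up to 1.95 CPM at a floor of 3 UMIs.

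Mcl1 (ENSMUSG00000038612, chr3:95658788-95663176, + strand), a short-lived pro-survival protein that germinal-centre B cells need, had means from 192 CPM in cluster 4 to 294 CPM in cluster 1 over clusters 0 to 4, and the library ranges of neighbouring clusters in that order overlapped. In cluster 3 it had 132 and 299 CPM in SFB-positive libraries, against 132 and 261 CPM in SFB-negative libraries, and in cluster 0 153 and 286 CPM in SFB-positive libraries, against 164 and 271 CPM in SFB-negative libraries. The log2(CPM + 10) difference between them was -0.12 ± 0.16 (SD, n = 4 libraries), smaller than its spread. The highest level in clusters 0 to 4 was in cluster 1, at 184 and 435 CPM in SFB-positive libraries, against 206 and 353 CPM in SFB-negative libraries. In cluster 5 the number 2 libraries had 367 CPM (SFB-positive) and 324 CPM (SFB-negative), below their own values in cluster 1. The values of both number 2 libraries lay above those of both number 1 libraries in all of clusters 0 to 4.

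Bcl2a1b (ENSMUSG00000089929, chr9:89199209-89207827, + strand), which encodes a copy of the A1 survival protein, was highest in clusters 2 and 4. Cluster 2 had 283 and 289.6 CPM in SFB-positive libraries, against 343 and 410.2 CPM in SFB-negative libraries, and cluster 4 had 298 and 193 CPM in SFB-positive libraries, against 368 and 288 CPM in SFB-negative libraries. In cluster 0 the values were 149 and 92.1 CPM in SFB-positive libraries, against 158 and 137 CPM in SFB-negative libraries, below every library of clusters 2 and 4. The differences from cluster 0 were 1.26 ± 0.33 for cluster 2 and 1.03 ± 0.09 for cluster 4 (log2(CPM + 10), SD, n = 4 libraries). Bcl2a1d (ENSMUSG00000099974, chr9:88723285-88731914, - strand) had the same order of means at its top. In cluster 2 it had 136 and 118 CPM in SFB-positive libraries, against 106 and 132 CPM in SFB-negative libraries. Its cluster 4 libraries ran from 87.9 to 143 CPM. Its differences from cluster 0 were 1.57 ± 0.23 and 1.44 ± 0.06 in clusters 2 and 4 (same scale, SD, n = 4 libraries). For both copies the library ranges of clusters 2 and 4 overlapped, and cluster 2 exceeded cluster 4 in 2 of 4 libraries. Both copies were lowest in cluster 6, where SFB-negative library 1, with 6 cells, had 0 UMIs of each.

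**Figure D2:**
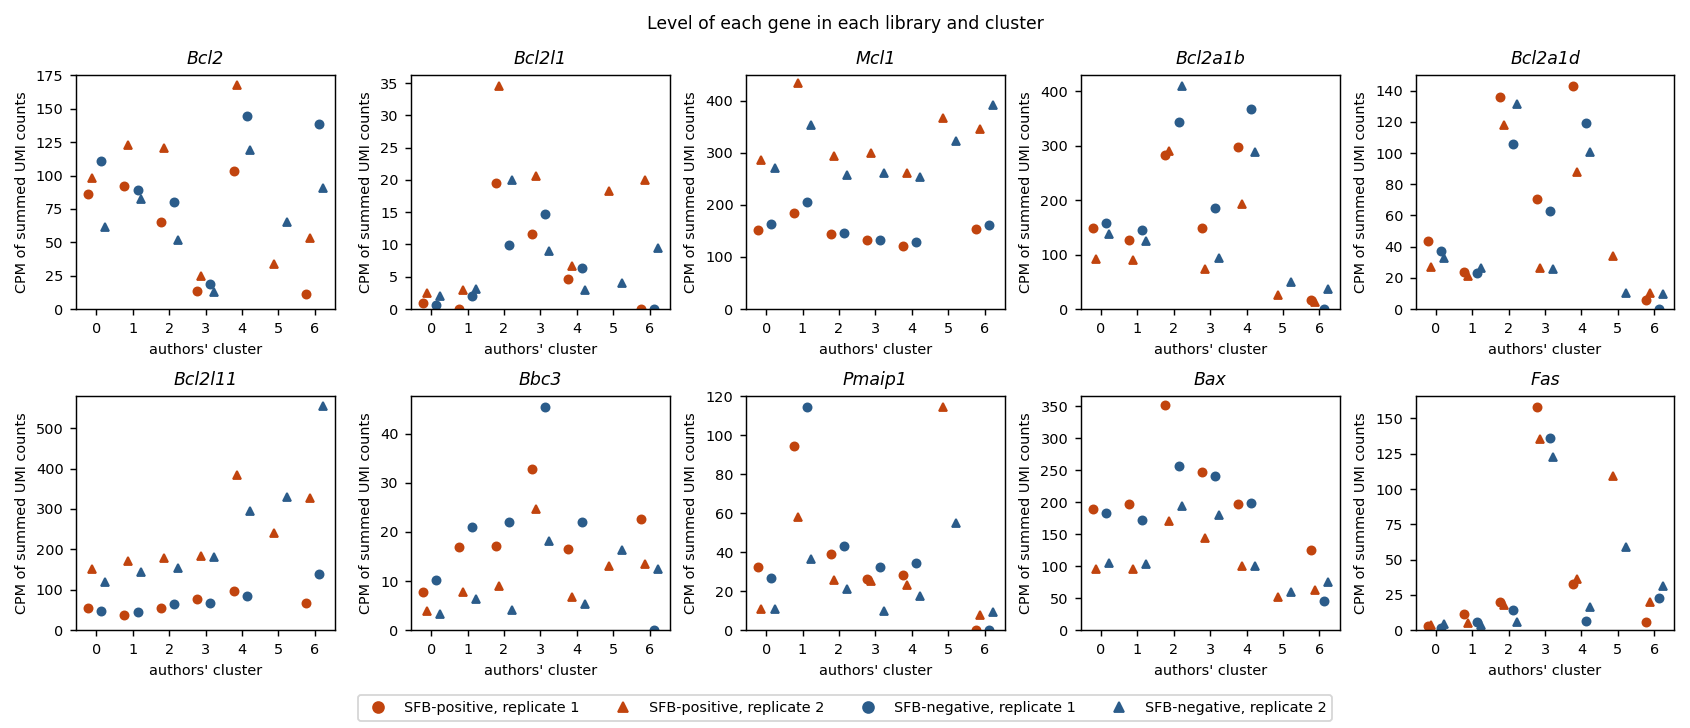
CPM of each gene (panels) by the authors' cluster (x axis), 1 point per library, with SFB-positive libraries in red left of SFB-negative libraries in blue and replicate number as circle (1) or triangle (2). Fas stands at 122 to 158 CPM in cluster 3, while Mcl1 and Bcl2l11 split by replicate number in clusters 0 to 4.

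Among the BH3-only genes, Bbc3 (ENSMUSG00000002083, chr7:16308393-16318205, + strand), which encodes Puma and is a target of p53 and FOXO factors, was highest in cluster 3. It had 32.7 and 24.6 CPM in SFB-positive libraries, against 45.5 and 18.2 CPM in SFB-negative libraries there, and 7.78 and 3.84 CPM in SFB-positive libraries, against 10.2 and 3.19 CPM in SFB-negative libraries in cluster 0. All 4 libraries were higher in cluster 3, by 1.29 ± 0.15 on the log2(CPM + 10) scale (SD, n = 4 libraries). Clusters 1, 2, 4 and 6 had means between 12.2 and 13.1 CPM and overlapped. Cluster 5 had 13.01 CPM in SFB-positive library 2 and 16.3 CPM in SFB-negative library 2, from 5 and 8 UMIs, below the same libraries' values in cluster 3.

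Pmaip1 (ENSMUSG00000024521), which encodes Noxa, an antagonist of Mcl1 and A1, was highest in clusters 5 and 1. Cluster 5 had 115 CPM in SFB-positive library 2 and 54.9 CPM in SFB-negative library 2. Cluster 1 had 94.4 and 58.2 CPM in SFB-positive libraries, against 114 and 36.5 CPM in SFB-negative libraries, above the same library's value in every other cluster but cluster 5. The 7 stress and dissociation genes were also highest there in each library: they summed to 8182 and 6806 CPM in SFB-positive libraries, against 8873 and 2985 CPM in SFB-negative libraries. In cluster 0 these genes summed to 955 to 3510 CPM. In cluster 5, where Pmaip1 was also high, they summed to 2119 CPM in SFB-positive library 2 and 958 CPM in SFB-negative library 2. Their part in the Pmaip1 level was not tested. In cluster 3 Pmaip1 had 26.4 and 25.1 CPM in SFB-positive libraries, against 32.3 and 10.0 CPM in SFB-negative libraries.

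Bcl2l11 (ENSMUSG00000027381, chr2:128126038-128162547, + strand) encodes Bim, which binds all pro-survival members. Of clusters 0 to 4 it was highest in cluster 4, with 96.2 and 385 CPM in SFB-positive libraries, against 84.9 and 294 CPM in SFB-negative libraries. The means of clusters 5 and 6 were higher, at 285 and 272 CPM. Cluster 5 ran from 239 to 330 CPM over the number 2 libraries alone, and cluster 6 from 68.1 to 555 CPM. Both ranges overlapped that of cluster 4. Cluster 3 had 78.1 and 183 CPM in SFB-positive libraries, against 67.5 and 179.9 CPM in SFB-negative libraries, and the difference of cluster 3 minus cluster 0 was 0.42 ± 0.11 on the log2(CPM + 10) scale (SD, n = 4 libraries). Within each library the cluster order 4, 3, 2 held, while the number 2 values in these clusters lay above all number 1 values.

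Bax (ENSMUSG00000003873, chr7:45461697-45466898, - strand), which opens the outer mitochondrial membrane once activated, was highest in cluster 2, at 351 and 171 CPM in SFB-positive libraries, against 257 and 195 CPM in SFB-negative libraries. Cluster 3 had 247 and 143 CPM in SFB-positive libraries, against 241 and 180.4 CPM in SFB-negative libraries, lower than cluster 2 in all 4 libraries. Its lowest mean was in cluster 5, at 52.1 CPM in SFB-positive library 2 and 59.0 CPM in SFB-negative library 2. An annotated gene on the same strand, Gm45808, shares exon sequence with Bax and has 7 UMIs, and Gm29094 does so with Bcl2a1b and has 25. The antisense gene D630008O14Rik overlaps an exon of Bcl2, with 83 UMIs against 8669 for Bcl2, and whether strand was used in counting is not given.

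Many of these levels differed by replicate number. Averaged over both groups in all table cells, number 2 libraries exceeded number 1 libraries 3.19-fold for Bcl2l11, 1.93-fold for Mcl1 and 1.87-fold for Bcl2l1. Ratios under 1 were seen for Pmaip1 (0.511), Bbc3 (0.524) and Bax (0.577). For Mcl1 and Bcl2l11 the ratio was above 1, and for Bbc3, Pmaip1 and Bax below 1, in each of clusters 0 to 4. Software version and antibody tags go with the number. Depth and the most genes in a table cell do so too, but within number 2 they also differ between SFB groups. Median depth there was 5863.5 UMIs per cell in the SFB-positive library, against 3252 in the SFB-negative library. Taking library number into account does not remove that difference. The parts of all these cannot be told apart.

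**Figure D3:**
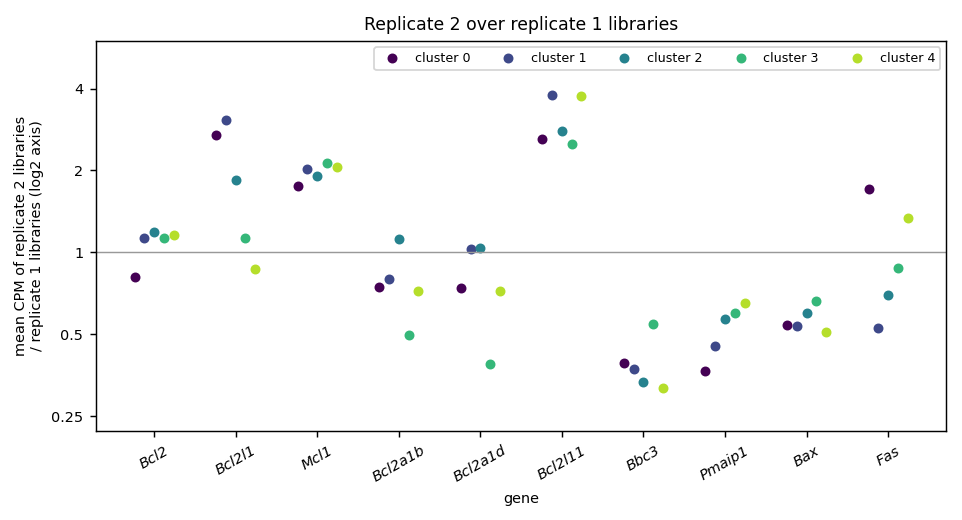
Mean CPM of the 2 number 2 libraries divided by that of the 2 number 1 libraries (y axis, log2 scale) for each gene (x axis) in clusters 0 to 4 (colours). Bcl2l11 lies between 2.49 and 3.78, and Bax between 0.510 and 0.664.

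Across 22 profiles (clusters 0 to 4 in 4 libraries and cluster 5 in the number 2 libraries), Bbc3 and Fas had the most similar pattern of any pair of the 10, with a Pearson r of 0.91 on log2(CPM + 10) centred on each library. Bcl2a1b with Bcl2a1d (0.87) and Mcl1 with Pmaip1 (0.79) followed. Bcl2 ran most opposite to Fas (-0.81) and Bbc3 (-0.76). Among 6038 genes searched, those most like Fas included Basp1 (0.98) and Rgs13 (0.97), and Rgs13 is on the germinal-centre list above. Those most like Bcl2 were Zeb2 (0.97), Map3k1 (0.96) and Man1a (0.95). Hspa4l, a heat shock family gene, was most like Pmaip1 (0.92), Slamf7 most like Bbc3 (0.93), Cd44 most like Bcl2l11 (0.89), Icosl most like Mcl1 (0.94), Psme2 most like Bax (0.97), Eif3a most like Bcl2l1 (0.94), and Nampt most like both A1 copies (0.89 each). The profiles share libraries and depth, and the values are a description.

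Between SFB groups, none of the 10 genes changed past the limit (adjusted p under 0.05, edgeR quasi-likelihood test with replicate number as a block) in all table cells or in clusters 0 to 4. Over all table cells 0 of 10 were called, beside 3.61% of 12268 genes tested. The counts were 0 of 10 beside 2.16% of genes in cluster 0, 0.981% in cluster 1, 1.14% in cluster 2 and 1.35% in cluster 3, and 0 of 9 beside 1.53% in cluster 4, where Bcl2l1 was too low to test. At an unadjusted p under 0.05 (edgeR) there were 3 members in all table cells, 1 in cluster 2 and 2 in cluster 4. The shares of all genes tested there were 11.5%, 7.56% and 10%. In clusters 0, 1 and 3 there were 0 members, beside 10%, 8.11% and 9.24% of all genes. At the adjusted limit DESeq2 called 0 members in each class. Over all table cells the members' median log2 difference was -0.0013, beside -0.02 over all genes tested. The standard errors of single members ran from 0.21 to 0.28 in all table cells and up to 0.58 in single clusters, and a missed limit does not show equal levels. The share of genes called rests on the block, with 0 genes called in any class without it, and 22 of 12268 by DESeq2 with it.

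Fas had the lowest adjusted p of the 10 genes. Over all table cells it had 34.4 and 43.1 CPM in SFB-positive libraries, against 19.4 and 27.4 CPM in SFB-negative libraries, so both SFB-positive libraries were above both SFB-negative libraries. After TMM scaling the log2(CPM + 10) difference was 0.60 within number 1 and 0.25 within number 2. The log2 difference was 0.54 ± 0.21 (SE), with an unadjusted p of 0.0115 and an adjusted p of 0.184 (edgeR). Cluster 3, the cluster richest in Fas, made up 5.96% and 11.2% of table cells in SFB-positive libraries, against 3.65% and 9.30% in SFB-negative libraries. In summed cells more cells of a type and more RNA per cell cannot be told apart. The most genes in a table cell, given above, differed between the groups within number 2. How that bears on these shares and on the Fas difference was not tested. In table cells outside clusters 3 and 5 the Fas difference was 0.85 ± 0.25 (SE, adjusted p = 0.0667, edgeR). In cells of at most 2900 genes it turned round, to -0.34, a limit that leaves 70 of 830 cluster 3 cells in SFB-positive library 2 and 484 of 719 in SFB-negative library 2.

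By cluster, Fas was higher in SFB-positive libraries in clusters 2 and 4 before adjustment, and the groups did not overlap in either. In cluster 4 it had 32.9 and 35.9 CPM in SFB-positive libraries, against 6.29 and 16.4 CPM in SFB-negative libraries, from 14 and 221 UMIs, against 2 and 40 UMIs. That is a log2 difference of 1.02 ± 0.37 (SE) with an adjusted p of 0.195 (edgeR). The 2 UMIs of SFB-negative library 1 came from 1 of 124 cells. Its 6.29 CPM lies below the floor of 3 UMIs there, 9.43 CPM. In cluster 2 Fas had 19.6 and 18.0 CPM in SFB-positive libraries, against 14.3 and 5.59 CPM in SFB-negative libraries. The difference was 1.01 ± 0.38 (SE) with an adjusted p of 0.294 (edgeR). These values rest on 16 and 122 UMIs in SFB-positive libraries, against 13 and 19 UMIs in SFB-negative libraries. Germinal-centre markers without Fas summed in cluster 4 to 82.1 and 131 CPM in SFB-positive libraries, against 81.8 and 115 CPM in SFB-negative libraries, and in cluster 2 to 60.0 and 127 CPM, against 38.6 and 86.2 CPM. Their part in the Fas levels was not tested. In cells of at most 2900 genes, cluster 4 had 32.9 and 6.24 CPM in SFB-positive libraries, against 6.29 and 12.8 CPM in SFB-negative libraries, so the groups overlapped and the number 2 direction turned. In cluster 2 they then had 19.6 and 15.8 CPM in SFB-positive libraries, against 14.3 and 6.14 CPM in SFB-negative libraries, and did not overlap. In cluster 3 the Fas difference was 0.07 ± 0.30 (SE), and the groups overlapped.

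Bcl2a1b was lower in SFB-positive libraries in all 6 classes tested, without passing the limit in any. Over all table cells it had 168 and 117 CPM in SFB-positive libraries, against 194 and 164 CPM in SFB-negative libraries, a log2 difference of -0.52 ± 0.26 (SE) with an adjusted p of 0.418 (edgeR), and the groups overlapped. After TMM scaling, its log2(CPM + 10) difference was -0.21 within number 1 and -0.75 within number 2, and both were negative in each of clusters 0 to 4. Over clusters 0 to 4 its fitted difference ran from -0.61 in cluster 4 to -0.45 in cluster 1. With no block and SFB-positive library 2 left out it was 0.023 in cluster 0 and 0.090 in cluster 3, and with SFB-negative library 1 left out 0.062 in cluster 3. These classes share libraries, and the cells of the clusters are those of the whole. The near-identical Bcl2a1d had -0.10 ± 0.22 (SE) over all table cells, and its within-number values differed in sign, 0.24 within number 1 and -0.35 within number 2.

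Bcl2l1 was the member with the largest difference over all table cells, 0.62 ± 0.28 (SE) with an adjusted p of 0.302 (edgeR). It had 5.20 and 11.8 CPM in SFB-positive libraries, against 4.10 and 5.58 CPM in SFB-negative libraries there. SFB-positive library 1 lay below SFB-negative library 2, so the groups overlapped. The 7 others lay between -0.15 and 0.15, with adjusted p-values of 0.922 or more (edgeR). For Bcl2, the values were 72.3 and 95.0 CPM in SFB-positive libraries, against 93.3 and 61.5 CPM in SFB-negative libraries: within number 1 the SFB-positive library was lower and within number 2 it was higher. The within-number values of Bcl2a1d, Bcl2l11, Bbc3, Pmaip1 and Bax, TMM scaled, also differed in sign.

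**Figure D4:**
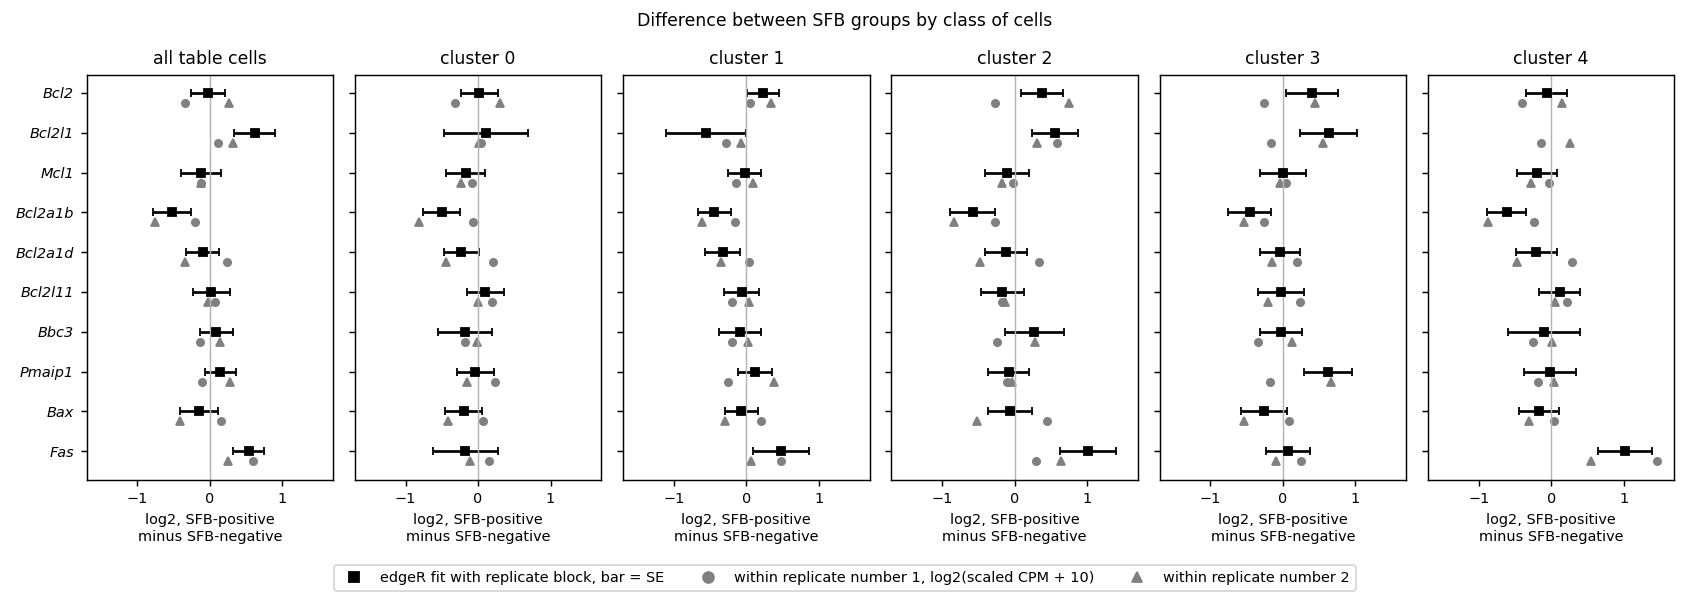
Log2 difference of SFB-positive minus SFB-negative libraries for each gene (rows) in each class of cells (panels): black squares are the edgeR fit with its SE, grey circles and triangles the TMM-scaled log2(CPM + 10) difference within replicate number 1 and 2. Bcl2a1b lies left of 0 in every panel, Fas is at 1.01 in cluster 2 and 1.02 in cluster 4, and no gene passes the limit.

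Whether the SFB difference in cluster 3 differed from that in cluster 0 was tested directly. None of the 10 genes was called, beside 0.618% of 10840 genes (edgeR, adjusted p under 0.05). Pmaip1 alone had an unadjusted p under 0.05, as had 7.94% of all genes, so 1 of 10 is near the background. Its difference was larger in cluster 3 by 0.72 ± 0.29 (SE), with an unadjusted p of 0.014 and an adjusted p of 0.384 (edgeR). Its cluster 3 values, given above, were higher in SFB-positive libraries within number 2 and lower within number 1, and with no block and SFB-positive library 2 left out the term was -0.39. Without the block 5 of the 10840 genes were called. For Bcl2 the same term was 0.14 ± 0.24 (SE), and for Fas 0.04 ± 0.32 (SE).

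In the wider apoptosis lists 2 genes, Bmf and Birc5, passed the limit. Both were called lower, as were most genes called overall: 329 lower against 114 higher over all table cells, 204 against 25 in cluster 0 and 79 against 23 in cluster 2. Among 17 other Bcl2 family genes, 13 were tested over all table cells and Bmf, a BH3-only gene, was the 1 that passed, beside the 3.61% of all genes. It had 6.88 and 6.86 CPM in SFB-positive libraries, against 15.1 and 10.4 CPM in SFB-negative libraries, which do not overlap, a log2 difference of -1.01 ± 0.24 (SE) with an adjusted p of 0.002 (edgeR). Bmf also fell in cluster 0, by 1.18 ± 0.30 (SE, adjusted p = 0.00745, edgeR), at 8.75 and 5.80 CPM in SFB-positive libraries, against 18.2 and 11.0 CPM in SFB-negative libraries. In cluster 2 it fell by 1.53 ± 0.43 (SE, adjusted p = 0.0322, edgeR), from 2 and 43 UMIs in SFB-positive libraries, against 14 and 42 in SFB-negative libraries. No Bmf call held without the replicate block, by DESeq2 or with any library left out, while the fitted difference over all table cells stayed near its size, at -1.06 without the block and -0.98 by DESeq2. The call over all table cells was also lost in cells of at most 2900 genes (-0.95, adjusted p = 0.65, edgeR), and that in cluster 2 with RLE scaling (adjusted p = 0.0765, edgeR) and without the low-count filter (adjusted p = 0.108, edgeR).

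Among 14 caspases and caspase regulators, the 1 call was Birc5, which encodes survivin and is raised in dividing cells, in cluster 0, beside 2.16% of all genes there. It had 3.40 and 1.20 CPM in SFB-positive libraries, against 0.70 and 7.28 CPM in SFB-negative libraries there, from 7 and 16 UMIs, against 2 and 89 UMIs. The fitted difference was -1.97 ± 0.50 (SE) with an adjusted p of 0.00688 (edgeR), yet within number 1 the SFB-positive library was the higher one, so the direction rests on number 2. This call too was lost without the block and by DESeq2. None of the genes tested from the 11 death receptor pathway genes in the files, 9 p53 genes or 10 genes of survival signalling passed in any class. Median log2 differences of the 5 lists over all table cells lay between -0.11 and 0.16, beside -0.02 over all genes.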

How the data were processed

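Gene expression of single CD45+ cells was measured with the 10x Chromium 3′ v3.1 kit in 2 libraries per SFB group. The deposited matrices hold UMI counts per gene and barcode, made by the authors with Cell Ranger 6.0.0 (number 1 libraries) and 7.0.0 (number 2 libraries) per the file headers; the submitters' processing notes name Cell Ranger 5.0.1 and mm10. The sources used here do not give how doublets, introns and reads shared by gene copies were treated. The authors' deposited table gives the library code, cluster and counts of UMIs and genes of each kept cell, and cells were matched to the matrices by barcode; the library codes were mapped to the labels through the group the table gives and the barcodes each library's file lists. The UMI count in that table equals the matrix sum in 2222 of 3408, 5622 of 7380, 2674 of 4050 and 6079 of 7731 cells (SFB-positive 1 and 2, then SFB-negative 1 and 2), so the matrices were used throughout.

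UMIs were summed per library and cluster, over 5959717 to 59627373 UMIs per library. Levels are CPM of these sums, with a pseudocount of 10 CPM on the log2 scale, where at least 5 cells were present. SFB groups were compared in classes with at least 20 cells in every library with edgeR 4.0.16 (R 4.3.3; TMM scaling, filterByExpr, quasi-likelihood test, replicate number as a block, adjustment by Benjamini and Hochberg over all genes tested, limit 0.05). The script was tested on simulated data. The block leaves 1 residual degree of freedom. TMM factors were 1.10 to 1.21 in SFB-positive library 2 and 0.915 to 1.00 in the others. The numbers come from the labels, which do not say what they mark; deviations from the group mean correlated between groups at r = 0.912 over 5822 genes. DESeq2 1.42.0 served as an alternative, beside no block, RLE scaling, no low-count filter, cells of at most 2900 genes and each library left out; table cells outside clusters 3 and 5 were added after seeing the data.

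The 10 genes and all lists were chosen with earlier results of these data known. All 10 are described, every gene of the wider lists past the limit is named, and for each member the 3 genes of highest r among genes of mean CPM of at least 20 were sought over 22 profiles, since cluster 5 has no level in the number 1 libraries. Not every gene so found is reported here. The floor of 3 UMIs covers counting error only. Promoters are from RefSeq, GRCm38.p6, read with Python 3.11.15 and Biopython 1.88; 9 of the 10 genes matched and none is printed for Pmaip1.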

Additional observations from a re-analysis of the deposited data

How the results depend on the processing

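No member passed the limit in any class under any of the 10 settings (11 for all table cells) of edgeR or DESeq2; the lowest adjusted p of a member was 0.0667, for Fas in table cells outside clusters 3 and 5 (edgeR), a setting chosen after seeing the data. The number of genes called did depend on the processing. Without the replicate block, which takes up the shared deviation of libraries paired by number, 0 genes were called in each class (443 with the block over all table cells). DESeq2 called 22 over all table cells and 5, 7, 5, 5 and 4 in clusters 0, 1, 2, 3 and 4. In cells of at most 2900 genes the counts were 3 over all table cells, 64 in cluster 1, 52 in cluster 2, 19 in cluster 3 and 16 in cluster 4. Cluster 0 moved less, with 196 against 229 in the main test. Over all table cells RLE scaling gave 260 and leaving out clusters 3 and 5 gave 248, and in cluster 1 no low-count filter gave 188. With each library left out in turn (no block, so a lone library is assumed to vary like the others), the counts ran from 0 to 3 over all table cells and in cluster 0, 0 to 2 in cluster 1, 0 to 4 in cluster 2, 0 to 7 in cluster 3 and 0 to 0 in cluster 4.

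Of the levels, the cluster 3 minus cluster 0 difference of Bcl2l1 moved to 0.75 in cells of at most 2900 genes, and that of Bbc3 to 1.05 there and to 1.48 with the mean of per-cell CPM; both kept their sign. The SFB difference over all table cells changed sign for Bcl2 with RLE scaling (0.021), no low-count filter (0.0062), DESeq2 (0.017), cells of at most 2900 genes (0.089) and cells outside clusters 3 and 5 (0.090). In cells of at most 2900 genes it did so for Bcl2l11 (-0.021), Bbc3 (-0.18) and Fas (-0.34), and without the block for Bbc3 (-0.043). For Fas in cluster 0 it did so without the block (0.016) and with DESeq2 (0.16). With a library left out, the difference over all table cells ran from -0.29 to 0.31 for Bcl2, -0.51 to 0.37 for Mcl1, -0.55 to 0.42 for Bcl2a1d, -0.83 to 1.04 for Bcl2l11, -0.57 to 0.86 for Bbc3, -0.53 to 0.97 for Pmaip1 and -0.85 to 0.50 for Bax. For Fas it ran from -0.42 to 0.89 in cluster 0, -0.093 to 1.31 in cluster 1 and -0.10 to 0.26 in cluster 3, and for Bcl2a1b from -0.99 to 0.023 in cluster 0 and -1.09 to 0.090 in cluster 3. The values of the sign opposite to the fitted one were 0.31 for Bcl2, 0.20 and 0.37 for Mcl1, 0.12 and 0.42 for Bcl2a1d, -0.83 and -0.55 for Bcl2l11, -0.57 and -0.53 for Bbc3, -0.53 and -0.47 for Pmaip1, and 0.36 and 0.50 for Bax. For Fas in cluster 0 they were 0.070 and 0.89, and for Bcl2a1b in cluster 3 0.062 and 0.090. They also included -0.093 for Fas in cluster 1, -0.10 for Fas in cluster 3 and 0.023 for Bcl2a1b in cluster 0. The Pmaip1 difference between clusters 3 and 0 ran from -0.39 to 1.14. The causes were not tested. Depth limits low genes most: Bcl2l1 and Fas rest on under 20 UMIs in some number 1 libraries and clusters. Cluster 5 could not be fitted, having 0 cells in 1 library.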
